A study of Mus musculus with 2 samples.

Results

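The genes of the matrix proteases and their inhibitors were described in DNase-seq data from mouse gastrocnemius, the large calf muscle. The set held 50 of the 21853 protein-coding genes of the GENCODE vM21 annotation and was chosen by symbol alone: 22 Mmp genes, 19 Adamts genes, 5 Adamtsl genes and 4 Timp genes. Mmp1a was left out because that annotation classes it as a polymorphic pseudogene. DNase-seq marks DNA that the enzyme DNase I can reach in nuclei, and a peak is a short region with many cuts. The study has 1 group: gastrocnemius tissue of male mice of the hybrid strain B6CASTF1/J, 4 days old, with no treatment named. Its 2 libraries, replicate 1 and replicate 2, carry separate tissue sample entries and the same donor entry, and each label names 3 males, without saying whether the animals were pooled. With 1 group no difference between conditions could be tested, and the values below are levels in each library beside those of all protein-coding genes.

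Matrix metalloproteinases (MMPs) are zinc enzymes that are made as inactive precursors and cut collagens, laminin, elastin and other matrix proteins. The ADAMTS proteases are secreted relatives that cut proteoglycans, trim procollagens or act on fibrillin microfibrils, and the ADAMTS-like proteins share their ancillary domains but have no protease domain. Tissue inhibitors of metalloproteinases (TIMPs) block the active site of MMPs, and TIMP2 also helps the membrane protease MMP14 to activate MMP2. In growing muscle these proteins remodel the connective tissue around the fibres, and removal of versican by ADAMTS proteases accompanies the fusion of myoblasts in mice.

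Replicate 1 had 94295 peaks and replicate 2 had 123291. Each peak carries the authors' cut density, a signal whose scaling no label or header states. Its smallest step was 0.00675 in replicate 1 and 0.00333 in replicate 2, which would make replicate 2 2.03 times as deep if each step stands for a single depth-scaled cut. The number of reads is unknown, and for this reason each peak is given by its rank, the percentile from 0 to 100 of its density among all peaks of its own library. The tissue label was checked against marker genes. All 7 skeletal muscle markers, from Myod1 to Ttn, had a promoter peak in both libraries, as did 6 of 7 fibroblast, 4 of 5 endothelial, 1 of 5 macrophage, 1 of 5 neutrophil, 3 of 5 cartilage and bone, 1 of 4 hepatocyte and 0 of 4 keratinocyte markers. Adding up the shares of all genes with a promoter peak at like promoter CpG content gives 3.71 muscle and 2.47 fibroblast markers. The endothelial count also lay above its own sum. For macrophage, neutrophil, cartilage and bone, hepatocyte and keratinocyte markers the sums were 1.72, 0.787, 3.14, 1.55 and 1.06. Those counts were near the sums and do not tell whether such cells were present. The tissue was whole muscle, and a weak peak from few cells cannot be told apart from a weak peak in many.

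Promoters of the ADAMTS, ADAMTS-like and TIMP genes were nearly all accessible, and those of most secreted MMPs were not. A promoter was the stretch within 500 bp of any protein-coding start of a gene, and its rank is that of the strongest peak touching it. Of the 50 genes, 38 had a promoter peak in replicate 1, against 65.3% of all protein-coding genes, and 36 had one in replicate 2, against 67% of all. The same 36 genes, or 72%, had one in both libraries, against 64.1% of all protein-coding genes. By family these were 18 of 19 Adamts genes, all 5 Adamtsl genes, all 4 Timp genes and 9 of 22 Mmp genes. A further 12 genes had a peak in neither library, against 31.8% of all.

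**Figure D1:**
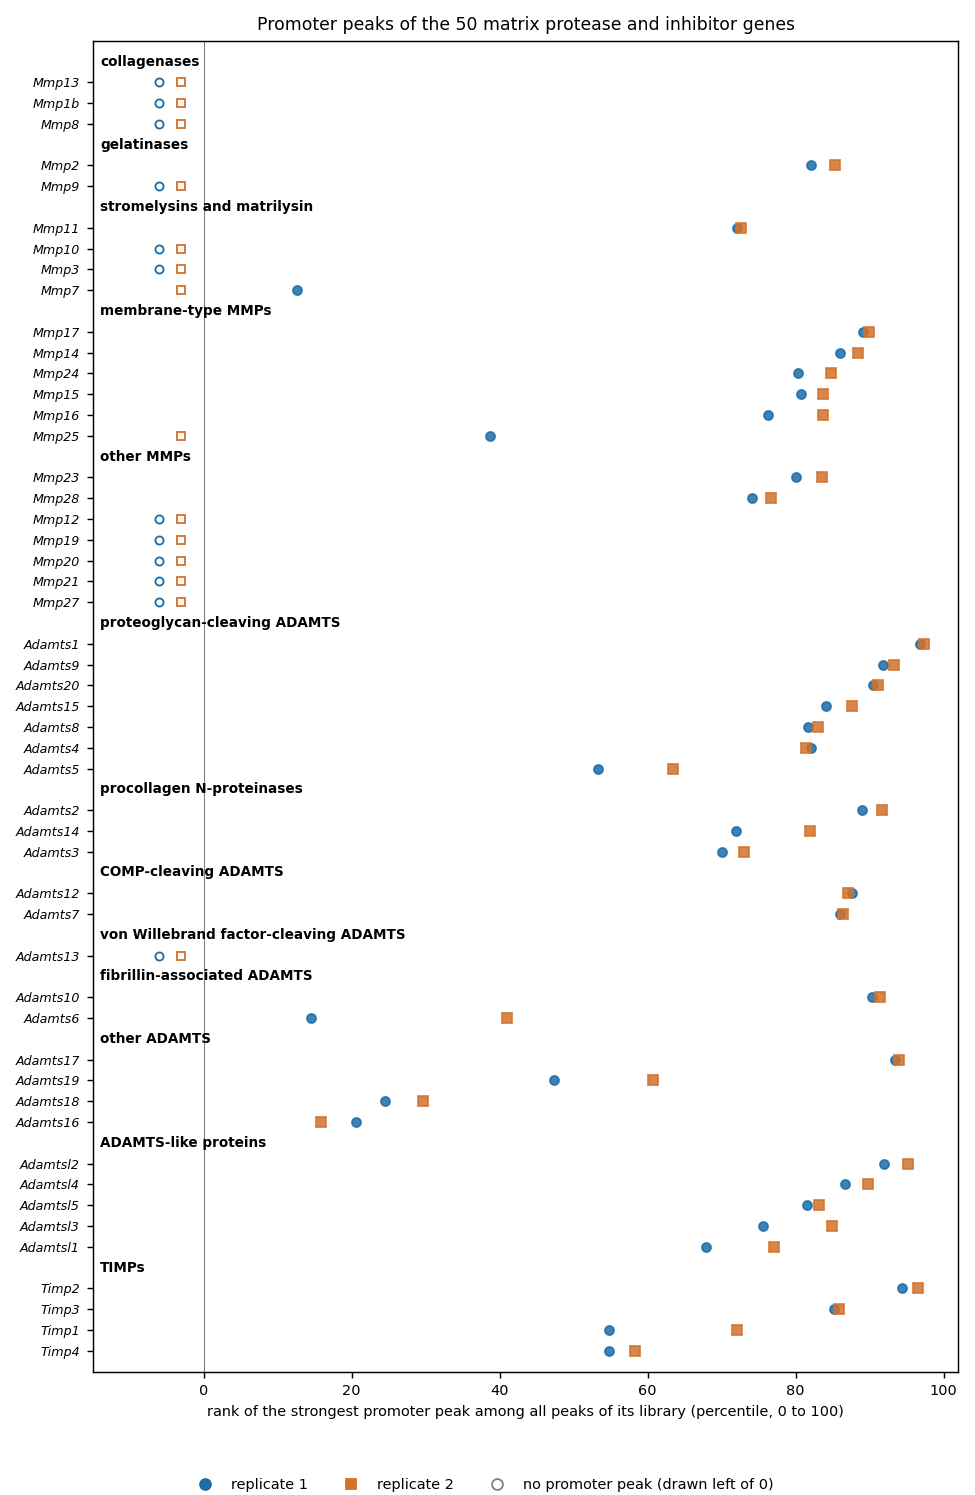
Rank of the strongest promoter peak of each of the 50 genes in replicate 1 (circles) and replicate 2 (squares), by role; open symbols left of 0 mark libraries with no promoter peak. The symbols of Adamts1 lie farthest right, at 96.8 and 97.3, and the collagenases have open symbols only.

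Few genes of secreted MMPs that cut fibrillar collagen or have broad specificity had a promoter peak, and all of these promoters but that of Mmp11 were poor in CpG. None of the 3 collagenase genes, Mmp13, Mmp1b and Mmp8, had a promoter peak in either library. The shares of all genes with a promoter peak at like promoter CpG content add up to 0.342 for these 3, and 1.36 for the 4 stromelysins and matrilysin, where 1 was found. Of these 4, Mmp3 and Mmp10 had none, Mmp7 (matrilysin) had 1 weak peak in replicate 1 alone, with a density of 0.365 and a rank of 12.6, and Mmp11 (stromelysin 3) had one in both. The strongest peaks of Mmp11 did not overlap between the libraries. In replicate 1 the peak lay in an exon of the neighbouring gene Chchd10, with a rank of 72.1, and in replicate 2 it lay 4145 bp downstream of the most upstream start of Mmp11, with a rank of 72.6. A start of Chchd10 lay within 500 bp of the strongest peak in at least 1 library, so that peak cannot be given to Mmp11 alone.

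The gelatinase genes, whose products cut denatured and basement membrane collagen, differed from each other. Mmp2 had a promoter peak with a density of 2.43 in replicate 1 and 1.60 in replicate 2, at ranks of 82.1 and 85.3. Mmp9 had no promoter peak in either library. Among the remaining MMPs outside the membrane-type group, Mmp23 had ranks of 80.0 and 83.6 and Mmp28 (epilysin) had ranks of 74.1 and 76.7. The genes of macrophage elastase (Mmp12), enamelysin (Mmp20), Mmp19, Mmp21 and Mmp27 had no promoter peak in either library. Thus 2 of these 7 remaining genes had a peak in both libraries, where the shares at like promoter CpG content give 2.19.

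Peaks in both libraries were present at the promoters of 5 of the 6 membrane-type MMP genes, where the shares at like promoter CpG content give 5.51. Mmp17, whose product is held by a lipid anchor, had the highest rank of all Mmp genes, 89.1 in replicate 1 and 89.96 in replicate 2, or 89.5 ± 0.629 (SD, n = 2 libraries). Mmp14, which encodes the activator of MMP2, had densities of 3.05 and 1.96 and ranks of 86.0 and 88.4. Mmp15, Mmp16 and Mmp24 had mean ranks from 80.02 to 82.5, closer together than the libraries of Mmp16, which differed by an SD of 5.27. Mmp25, the other lipid-anchored member, had 1 peak in replicate 1, with a density of 0.689 and a rank of 38.7, and none in replicate 2.

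The promoters of all 7 proteoglycan-cleaving ADAMTS proteases were accessible in each library, where the shares at like promoter CpG content give 5.35. Adamts1, a versican and aggrecan protease, had the highest mean rank of the 50 genes, 97.1 ± 0.348 (SD, n = 2). Its strongest peak had a density of 8.15 in replicate 1 and 4.98 in replicate 2 and was centred at -98 bp from the most upstream start in replicate 1. Adamts9 had ranks of 91.7 and 93.3, and Adamts20, like Adamts9 a versican protease of development, had ranks of 90.4 and 91.1. Adamts15, Adamts8 and Adamts4 had mean ranks of 85.8, 82.4 and 81.7. Adamts5, the main aggrecanase of mouse cartilage, was the lowest of the group, at 53.3 in replicate 1 and 63.4 in replicate 2. The strongest peaks of Adamts4 in the libraries did not overlap.

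The procollagen N-proteinase genes Adamts2, Adamts14 and Adamts3 had mean ranks of 90.3, 76.9 and 71.5. Adamts14 was the least even of them, at 71.9 in replicate 1 and 81.99 in replicate 2. Adamts12 and Adamts7, whose products cut cartilage oligomeric matrix protein, had mean ranks of 87.3 and 86.3. Adamts13, which encodes the von Willebrand factor protease known from liver, was the only Adamts gene without a promoter peak.

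Genes of fibrillin-associated and less studied ADAMTS proteases spanned nearly the whole range. Adamts10 had ranks of 90.3 and 91.4. Adamts6, its close paralogue, had 14.5 and 41.1, the widest gap between libraries of the 36 genes (SD 18.7). Adamts17 had densities of 5.62 and 3.26 and ranks of 93.4 and 93.95. By contrast Adamts19 had 47.4 and 60.8, Adamts18 had 24.5 and 29.7, and Adamts16 had 20.5 and 15.8, the lowest mean rank of the 36. The order of Adamts6 and Adamts18 at the low end, with means of 27.8 and 27.1, did not exceed the spread between libraries.

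Adamtsl2, which encodes a fibrillin-binding protein, led the ADAMTS-like genes with densities of 4.86 and 3.77 and ranks of 92.0 and 95.2. Its mean of 93.6 ± 2.25 was not separated from that of Adamts17, 93.7 ± 0.382 (SD, n = 2 each). Adamtsl4, another fibrillin partner, had ranks of 86.7 and 89.8. Adamtsl5 followed with 81.5 and 83.1, Adamtsl3 with 75.6 and 84.9, and Adamtsl1 with 67.9 and 77.1. For Adamtsl3 and Adamtsl1 the strongest peaks of the libraries did not overlap. Those of Adamtsl1 were centred 139 bp downstream of its most upstream start in replicate 1 and 539769 bp downstream in replicate 2. Its ranks in the libraries thus belong to different starts of the gene.

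The 4 inhibitor genes were unequal. Timp2 had a density of 6.18 in replicate 1 and 4.495 in replicate 2, at ranks of 94.4 and 96.6, second among the 50 genes by mean rank. Timp3, whose product binds to the matrix and also inhibits ADAMTS proteases, had ranks of 85.2 and 85.8. Timp1 had ranks of 54.8 and 72.1, and Timp4 had 54.8 and 58.2. The means of Timp1 and Timp4, 63.4 ± 12.2 and 56.5 ± 2.42 (SD, n = 2 each), did not differ beyond the spread of Timp1. Timp1, Timp3 and Timp4 lie within the synapsin genes Syn1, Syn3 and Syn2, and the Timp1 promoter peak was placed in an intron of Syn1.

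The sequences under the strongest promoter peaks that lie mostly outside exons are shown on the strand of the gene, from the GRCm38.p6 (mm10) reference. Capitals mark bases inside deposited footprints of both libraries, which are short protected stretches in accessible DNA. The Adamts1 peak is chr16:85803101-85803320 (minus strand), the Adamts17 peak chr7:66839461-66839640 (plus strand) and the Adamtsl2 peak chr2:27079181-27079340 (plus strand).
Adamts1: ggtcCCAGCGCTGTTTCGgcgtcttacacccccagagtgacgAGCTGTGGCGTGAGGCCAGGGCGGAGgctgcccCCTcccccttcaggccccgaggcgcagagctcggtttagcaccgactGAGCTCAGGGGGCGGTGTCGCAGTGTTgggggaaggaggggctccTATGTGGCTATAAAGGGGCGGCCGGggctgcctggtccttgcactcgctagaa
Adamts17: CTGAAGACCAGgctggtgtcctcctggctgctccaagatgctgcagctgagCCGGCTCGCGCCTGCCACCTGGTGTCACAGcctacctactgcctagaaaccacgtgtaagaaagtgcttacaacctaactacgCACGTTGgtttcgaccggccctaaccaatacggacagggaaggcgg
Adamtsl2: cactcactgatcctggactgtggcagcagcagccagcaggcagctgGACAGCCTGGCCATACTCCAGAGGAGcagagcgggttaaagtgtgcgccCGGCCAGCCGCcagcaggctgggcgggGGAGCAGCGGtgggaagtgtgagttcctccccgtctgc

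Accessible promoters of the set were weaker than those of genes at large. The median mean rank of the 36 genes was 82.3, against 92.1 for all protein-coding genes with a promoter peak in both libraries. A mean rank of 90 or more was reached by 8 of the 50 genes, against 36.9% of all genes. These were Adamts1, Timp2, Adamts17, Adamtsl2, Adamts9, Adamts10, Adamts20 and Adamts2. The median ratio of the authors' density in replicate 1 to that in replicate 2 was 1.55 at the 36 promoters. Over all paired peaks, distal ones included, it was 1.41. The ratio was above 1 at 35 of the 36 promoters, and Adamts6 was the exception, with 0.904. The same count over all accessible promoters was not made, so this is not a trait of the set. For Adamts4, Adamtsl1, Adamtsl3 and Mmp11 the ratio compares peaks that do not overlap.

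Promoter accessibility follows CpG content in most tissues, so the genes were also read by class of CpG ratio, the observed over the expected number of CpG pairs within 500 bp of the most upstream start, in 10 classes of equal size over all genes. Adding up the shares of all genes with a promoter peak in the same classes gives 31.3 of the 50 genes, and 36 had one. For Mmp genes the shares give 10.4 and 9 of 22 had a peak, and for Adamts genes they give 14.7 and 18 of 19 had one. They give 3.79 for the 5 Adamtsl genes and 2.39 for the 4 Timp genes, all of which had one. In the 4 CpG-poor classes 7 of 20 genes were accessible, against 4.12 from the shares. Those 7 were Adamts4, Adamts5, Adamts12, Adamts16, Adamtsl2, Timp1 and Timp4. In classes 5 to 10 the peak was present in 29 of 30 genes, against 27.2 from the shares, and Mmp25 was the one without it in both libraries. For high ranks the reading went the other way. The shares give 16.3 genes at a mean rank of 90 or more, where 8 were found, and 28 of the 36 genes lay below the median rank of their own class.

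**Figure D2:**
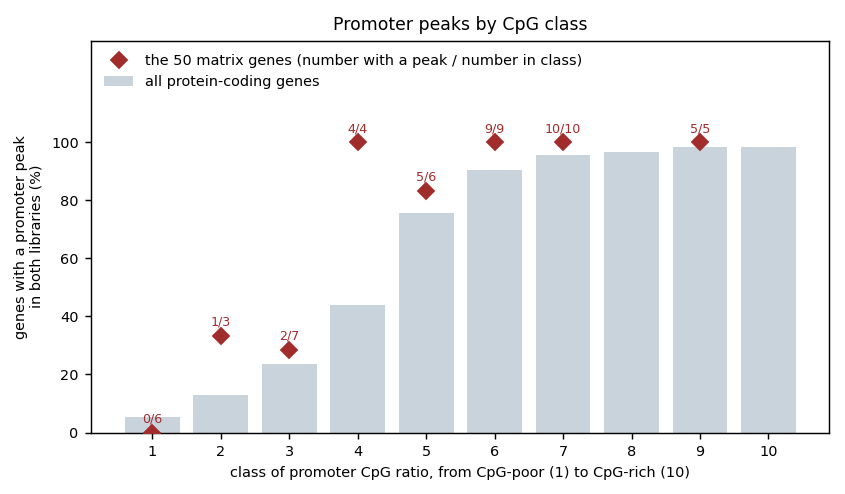
Percent of genes with a promoter peak in both libraries by class of promoter CpG ratio, for the 50 matrix genes (diamonds, with counts) and all protein-coding genes (bars). The 6 genes in class 1 had no such peak, and in classes 6, 7 and 9 all of the set's genes had one.

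The 9 Mmp genes on proximal chromosome 9, from Mmp13 to Mmp7, had no promoter peak shared by the libraries. They lie at chr9:7272514-7699585 over 427 kb in the order Mmp13, Mmp12, Mmp1b, Mmp3, Mmp10, Mmp8, Mmp27, Mmp20 and Mmp7. None of the 9 was accessible at the promoter in both, and the shares by CpG class give 1.18, so the count is near that of all genes of like CpG content. The Mmp7 peak of replicate 1 was the only promoter peak in either library. The region held 8 peaks in replicate 1, or 18.7 per Mb against 41.1 per Mb over chromosome 9, and 4 in replicate 2, or 9.37 against 55.8 per Mb. Of these 3 were shared between the libraries. The strongest, chr9:7595321-7595520, lies between genes, 24025 bp downstream of the Mmp27 start, with ranks of 70.3 and 87.0. Outside this cluster 36 of the 41 genes of the set were accessible at the promoter in each library, against 30.1 from the shares by CpG class.

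**Figure D3:**
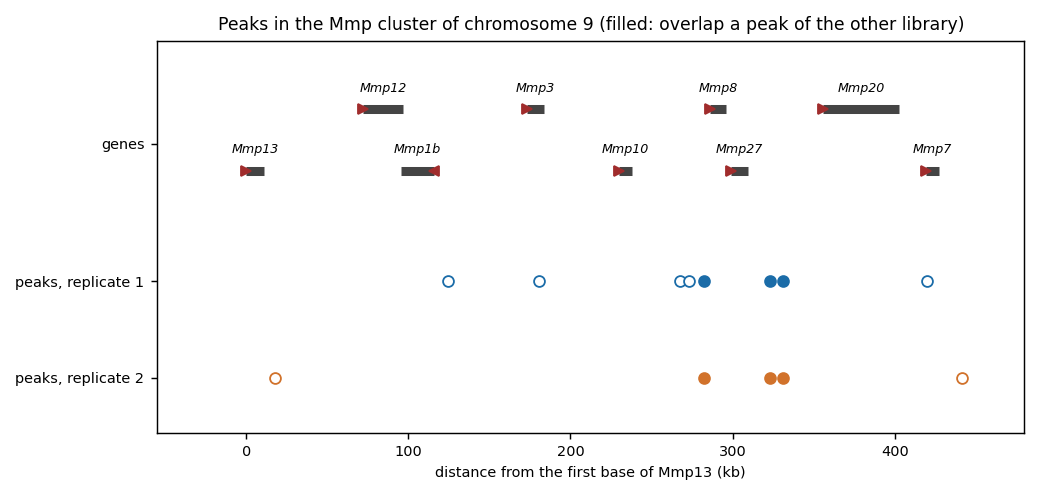
Genes (bars, with triangles at the starts) and peak centres in replicate 1 and replicate 2 along the Mmp cluster, in kb from the first base of Mmp13; filled circles overlap a peak of the other library. The 3 shared peaks lie on either side of Mmp8 and Mmp27, and no shared peak lies between Mmp13 and Mmp10.

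The promoters without a peak also had no bases of low FDR. In the deposited lists of base stretches with a false discovery rate (FDR) below 0.05, none of the 12 genes without a peak had such a base in its promoter in either library. Over all protein-coding genes without a promoter peak this held for 6694 of 6941, or 96.4%. Macrophages and neutrophils are known sources of Mmp12, Mmp8, Mmp9 and Mmp25. Of the markers of these cells, Adgre1, Csf1r, Cd68, Aif1, Elane, Ly6g and Csf3r had no promoter peak in either library, Fcgr3 had a mean rank of 91.9, S100a8 had 37.8 and Mpo had a peak in replicate 2 alone. The part of these cells in the result was not tested.

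All AP-1 motifs found in promoters of the set lay in MMP genes without a promoter peak in both libraries. AP-1, the dimer of Fos and Jun proteins, is the classical activator of collagenase and stromelysin genes in cells exposed to growth factors or phorbol ester. Its motif, TGANTCA, was searched on both strands from 250 bp before to 50 bp after the most upstream start. It was found in 7 of the 50 promoters (14%), against 6.74% of all protein-coding genes. All 7 were among the 14 genes without a promoter peak in both libraries (50%), where the share for all genes in that state was 835 of 7853 (10.6%). None of the 36 accessible promoters held it, against 638 of 14000 (4.56%). Within CpG classes 1 to 3 the counts were 7 of 13 closed genes of the set and 666 of 5639 for all genes (11.8%). Accessible genes of these classes held it in 0 of 3 cases in the set and in 97 of 917 over all genes (10.6%), so that in all genes of like CpG content the share was similar in either state, and the set had 3 accessible genes to compare. None of the 7 motifs lay in a peak or a footprint of either library. They are shown with 10 bases on each side and the motif in capitals, on the strand of the gene, to show how alike the sites are. 6 of the 7 belong to the chromosome 9 cluster, whose genes are tandem relatives, and the Mmp19 site also lies in an exon of the antisense gene Gm47093. They begin between -95 bp (Mmp20) and -32 bp (Mmp19) from the start, at chr9:7272469-7272495 (Mmp13, plus strand), chr9:7388103-7388129 (Mmp1b, minus), chr9:7445766-7445792 (Mmp3, plus), chr9:7502269-7502295 (Mmp10, plus), chr9:7628126-7628152 (Mmp20, plus), chr9:7692017-7692043 (Mmp7, plus) and chr10:128790868-128790894 (Mmp19, plus), all GRCm38.p6.
Mmp13: cccaaagtggTGACTCAtcactatcat
Mmp1b: ttacaaagccTGAGTCAtatagcctct
Mmp3: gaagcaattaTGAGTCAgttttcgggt
Mmp10: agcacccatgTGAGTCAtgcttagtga
Mmp20: atttgagacaTGAATCAtcacttacag
Mmp7: agtgtgcaaaTGAGTCAcctatttcca
Mmp19: tctctctggcTGAGTCAcctcccactg

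The usual AP-1 site, TGACTCA or TGAGTCA, was found in 6 of the 7, and Mmp20 had TGAATCA. The split between closed and accessible promoters depended on the stretch searched. From 500 bp before to 100 bp after the start, 7 genes without and 3 genes with a peak in both libraries held the motif (Adamtsl4, Mmp23 and Mmp28 among the accessible ones), and from 1000 bp before the start 9 and 7 did. With every protein-coding start used, 9 closed genes, now also Mmp12 and Mmp9, and 0 accessible genes held it. A motif match is a description of the sequence and not evidence of binding.

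**Figure D4:**
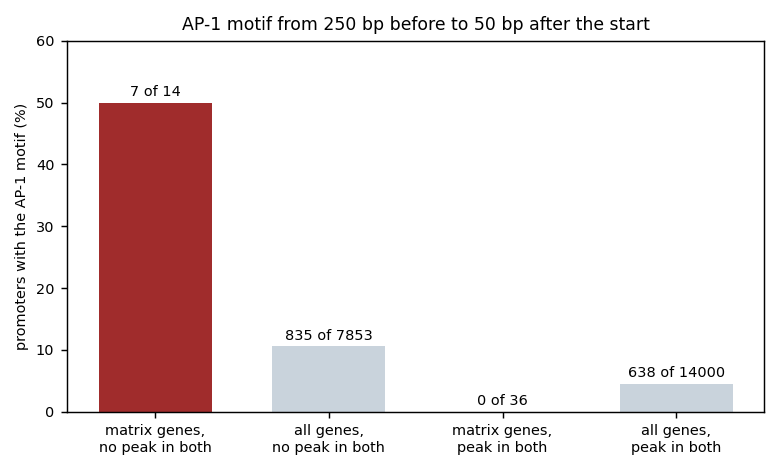
Percent of promoters with the AP-1 motif from 250 bp before to 50 bp after the start, for the 50 matrix genes and all protein-coding genes, without and with a promoter peak in both libraries. The motif was present in 7 of 14 matrix genes without a peak in both libraries and in 0 of 36 with one.

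Accessible promoters of the set held other motifs. The GC box bound by SP and KLF proteins, GGGCGG on either strand, was present in 21 of the 36 accessible promoters (58.3%), against 61.6% of all accessible promoters. In 12 of these 21 (57.1%) a match lay in a footprint of both libraries, against 62.0% for all accessible promoters with the motif. Adamts1 had 3 such matches in footprints of both libraries, at -147, -76 and -25 bp, and Timp1 had 1 at -8 bp. The E-box CAGCTG, the preferred site of MyoD and myogenin, was present in 10 of 36 (27.8%), against 15.1% of all. In CpG classes 1 to 3 it was found in 3 of 3 accessible genes (Adamts4, Adamtsl2 and Timp4), against 234 of 917 (25.5%). An E-box lay in a footprint of both libraries in 1 of the 10 (10%), against 12.4% of all accessible promoters with the motif. This E-box, at -22 bp of Adamtsl2, lay in no peak of either library, and neither did those of Adamts4, Adamtsl1 and Timp4. The ETS motif CCGGAAG, common in promoters of broadly active genes, was found in 0 of 36, against 2207 of 14000 (15.8%), and the CRE motif TGACGTCA in 0 of 36, against 463 (3.31%). The motif of EBF factors, TCCC and GGGA with any 2 bases between them, was found in Mmp14 alone, at -197 bp and in a footprint of both libraries, against 0.993% of all promoters. It is printed in capitals with 10 bases on each side, chr14:54431405-54431434 (plus strand).
Mmp14: ccgcatcccgTCCCCTGGGAcacccaggct

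Distal accessibility around the genes was described by shared distal peaks. These were peaks of replicate 1 that overlapped a peak of replicate 2 by at least 1 bp, were centred over 1 kb away from all annotated starts, and lay within 50 kb of the most upstream start of a gene. The 50 genes had 182 of them, 15 of which lay near more than 1 gene of the set, and the nearest protein-coding start belonged to one of the 50 for 121. Peaks were counted in replicate 1, so several can overlap the same peak of replicate 2, as near Adamts20, Adamts9 and Timp2. The median gene had 3, against 2 for all protein-coding genes. By place 90 lay in introns, 23 in exons and 69 between genes, and 74 lay in the body of a gene of the set. Their median mean rank was 66.5, against 56.0 for all 45755 shared distal peaks.

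The genes with most shared distal peaks were ADAMTS, ADAMTS-like and TIMP genes and Mmp28. At least 10 were found for 5 of the 50 genes, against 2.61% of all genes. Adamts8 had 13 and Adamts15 had 12, but the genes are divergent neighbours on chromosome 9 and all 12 of Adamts15 were also counted for Adamts8. The strongest of the 12 lay at -2031 bp from the Adamts8 start, with ranks of 89.5 and 89.0. Timp2 had 11, of which those at -20921 and -22411 bp were weak in both libraries. Adamtsl2 and Mmp28 had 10 each. Of the 10 peaks near Adamtsl2 only 2 had its start as the nearest, and for 3 the nearest was that of Mymk, the gene of the muscle fusion protein myomaker. Mmp28 also had its start nearest to 2 of its 10. Next came Adamts2 with 9, Timp3 with 8, Adamts7 and Adamts17 with 7 each, and Adamts1 and Adamts5 with 6 each. Adamts2 and Timp3 differed from the leading genes in that their own starts were nearest to all of their peaks.

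**Figure D5:**
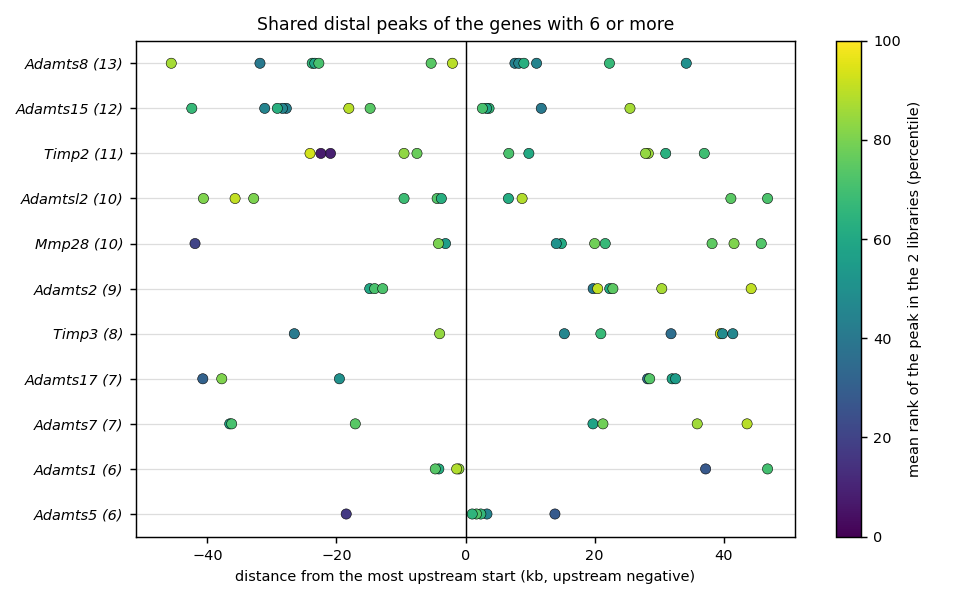
Shared distal peaks of the 11 genes with 6 or more (number after the name), by distance from the most upstream start in kb and coloured by mean rank. The peaks of Adamts8 and Adamts15 are largely the same peaks, and 4 of the 6 of Adamts5 lie within 4 kb downstream of its start.

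No shared distal peak was found for 7 of the 50 genes (14%), against 26.7% of all genes. These were Mmp3, Mmp7, Mmp10, Mmp12, Mmp13 and Mmp1b of the chromosome 9 cluster, and Mmp16, whose promoter was accessible at ranks of 76.3 and 83.7. Some genes without a promoter peak in both libraries had strong distal peaks nearby. Mmp19 had one at -11309 bp with ranks of 85.9 and 90.2, Mmp9 one at -16119 bp with 82.9 and 85.9, and Mmp25 one in its own exon at 14906 bp with 86.9 and 88.7. For Mmp9 the nearest start was that of Zfp335, and for Mmp19 and Mmp25 it was their own.

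The strongest distal peaks belonged to Mmp2, Adamtsl5, Timp2 and Timp3. In an intron of Mmp2, 23120 bp downstream of its start, a peak reached densities of 7.41 and 4.15 and ranks of 96.0 and 95.9, above the 82.1 and 85.3 of the Mmp2 promoter itself; the nearest start was that of Lpcat2. Mmp2 had another at -8890 bp with ranks of 91.9 and 94.3. Adamtsl5 had one at -27949 bp with ranks of 94.0 and 95.7, where Mex3d was the nearest gene. Timp2 had one at -24091 bp with ranks of 91.9 and 94.8, nearest to Lgals3bp, and Timp3 one in its intron at 39469 bp with 90.7 and 94.6. Adamts2 had 2 strong intronic peaks, at 20467 bp with ranks of 89.7 and 90.9 and at 44247 bp with 88.97 and 91.9. Both matched its promoter, at 88.97 and 91.7, within the spread between libraries.

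The distal peaks of 4 of these genes are shown on the strand of the gene, with bases inside footprints of both libraries in capitals. They are chr8:92850281-92850540 (Mmp2, plus strand, intron), chr11:118379741-118379920 (Timp2, minus strand, between genes), chr10:86339741-86339940 (Timp3, plus strand, intron) and chr11:50646241-50646420 (Adamts2, plus strand, intron), all GRCm38.p6.
Mmp2: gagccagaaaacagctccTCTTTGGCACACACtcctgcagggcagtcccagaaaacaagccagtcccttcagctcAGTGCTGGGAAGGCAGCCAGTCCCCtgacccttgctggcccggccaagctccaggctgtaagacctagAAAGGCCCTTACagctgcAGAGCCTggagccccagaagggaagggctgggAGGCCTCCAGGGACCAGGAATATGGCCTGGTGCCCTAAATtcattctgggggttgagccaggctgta
Timp2: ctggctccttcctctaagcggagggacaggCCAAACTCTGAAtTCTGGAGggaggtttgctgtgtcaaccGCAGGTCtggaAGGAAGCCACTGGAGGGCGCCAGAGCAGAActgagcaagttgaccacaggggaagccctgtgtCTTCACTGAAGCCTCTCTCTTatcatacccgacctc
Timp3: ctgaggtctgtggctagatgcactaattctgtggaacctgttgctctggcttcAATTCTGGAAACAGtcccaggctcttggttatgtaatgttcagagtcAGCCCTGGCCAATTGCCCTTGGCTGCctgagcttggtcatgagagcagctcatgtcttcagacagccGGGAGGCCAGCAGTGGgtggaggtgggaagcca
Adamts2: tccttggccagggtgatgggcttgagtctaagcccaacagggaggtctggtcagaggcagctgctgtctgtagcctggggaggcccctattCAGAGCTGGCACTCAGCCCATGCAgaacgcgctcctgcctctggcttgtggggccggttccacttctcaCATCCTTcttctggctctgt

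AP-1 motifs were present in 16 of the 182 shared distal peaks (8.79%), against 6.77% of all shared distal peaks. In windows of 200 bp around the peak centre the counts were 17 (9.34%), against 7.85% of all. A match lay in a footprint of both libraries in 3 of the peaks, near Adamtsl5, Mmp19 and Adamts14. The peak near Adamtsl5, at -2069 bp, had ranks of 92.3 and 89.5, the one near Mmp19 was the strong peak at -11309 bp, and the one near Adamts14, at -12023 bp, had ranks of 80.4 and 82.0. The E-box CAGCTG was present in 60 of the 182 (33.0%), against 27.4%. The 3 AP-1 sites in footprints are shown with the motif in capitals, at chr10:80350447-80350473 (Adamtsl5, minus strand), chr10:128779562-128779588 (Mmp19, plus) and chr10:61285532-61285558 (Adamts14, minus).
Adamtsl5: tctgctggacTGAGTCAgaactgcagg
Mmp19: gcccagtcccTGAGTCAtccgcctaag
Adamts14: agctggtgacTGAGTCAggggccccgg

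Upstream of Timp2 the libraries differed in the number of weak peaks. Within 50 kb of its start replicate 1 had 69 distal peaks and replicate 2 had 15, and upstream of the start the counts were 63 and 5. Of the 63, 60 had a rank under 50, and their median density was 0.277, against 1.17 for the 5 of replicate 2. The 100-kb stretch chr11:118300001-118400000 had 69 peaks in replicate 1 and 18 in replicate 2, the largest excess of replicate 1 among 22853 such stretches. The largest excess of replicate 2 elsewhere was 68 peaks against 0. Only shared peaks were counted above, so 11 peaks were assigned to Timp2, 5 of them upstream. The upstream ones at -20921 and -22411 bp were weak in both libraries, with mean ranks of 8.65 and 7.51. The overlap rule thus did not remove every weak peak. Those at 28319 and 27879 bp overlapped the same peak of replicate 2. Without the Timp2 window the set had 171 shared distal peaks. The reason for the difference between the libraries was not tested.

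Other genes of matrix turnover were also mostly accessible. Of 58 such genes, 50 had promoter peaks in each library (86.2%), against 64.1% of all protein-coding genes, where the shares by CpG class give 39.2. The highest mean ranks were those of Adam9 (99.9), Bsg (99.6), Adam10 (99.6), Fn1 (98.3) and Adam17 (97.5). The strongest promoter peak of Adam9 also touched the promoter of Tm2d2. Adam9, Adam10 and Adam17 encode membrane sheddases, Bsg encodes an inducer of MMPs and Fn1 encodes fibronectin. Of the MMP inhibitors outside the TIMP family, Reck, a membrane-anchored one, had ranks of 93.0 and 93.2, and A2m, a protease-trapping plasma protein, had 14.0 and 20.02. The convertase genes Furin, Pcsk5, Pcsk6 and Pcsk7, whose products can activate MMP and ADAMTS precursors, all had a peak in both libraries. For these 4 genes the shares by CpG class give 3.17. Of 18 substrate genes 17 had a peak in both, where the shares give 11.2, and Bcan (brevican) had one in replicate 2 alone. In the plasminogen system 4 of 7 had a peak in both, where the shares give 2.67. Plg and Plaur had none, and Serpinf2 had one in replicate 2 alone. Mep1a, Ctss and Loxl2 had none either, and Ctsk had one in replicate 2 alone.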

How the data were processed

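The authors' deposited interval lists on mouse build mm10 were used, each called on 1 library, per the deposited file listings. The peak lists hold the authors' cut density (signal), and the deposited FDR lists hold q-values below 0.05. The deposited footprint lists hold the constant 0.01, which was not used. The aligner, the callers and the scaling were not given in the sources used here. Each library has a longer peak list, used throughout, and a shorter one, used as an alternative. Densities were whole multiples of a step, to within 0.1 step, for 100% of the values under 1 in both libraries.

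Genes, starts and places came from GENCODE vM21 and sequences from the GRCm38.p6 reference, which is C57BL/6J, so CAST alleles were not read. Python 3.11.15, numpy 2.4.6, pysam 0.24.0 and matplotlib 3.10.9 were used, and overlap counts were checked on simulated intervals against bedtools 2.31.1. Ranks, promoters (500 bp), CpG classes (10), shared and distal peaks are defined in the text. The place of a peak was read at its centre. A motif match was counted as lying in a peak or footprint when it overlapped it by at least 1 bp.

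There were 2 libraries of 1 group, so no test was made. The genes named with full values were the 10 with the highest mean promoter rank, the 10 with most shared distal peaks (11 with ties), the Timp genes and those with a promoter peak in 1 library. For the other matrix genes these were the 5 highest and those without a peak. Further genes were named by role or after their values were seen. The members, lists and motifs were chosen with earlier results of these data known. Alternatives were the peak list, the peak strength and number, the promoter size and starts, the distal window, the overlap, the assignment of peaks and single libraries. The alternative stretches for AP-1 and the count without the Timp2 window were chosen after seeing the data.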

Additional observations from a re-analysis of the deposited data

How the results depend on the processing

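Of 48 alternatives, 38 left the value within 1.5 times of its count, or within the spread between libraries (SD 2.23) for the median rank. The number of genes with a promoter peak in both libraries, 36, lay between 32 and 38 under the 9 of these that were run for it, and 37 had bases with an FDR below 0.05 in both libraries. With 1 library alone it was 36 to 38. The 182 shared distal peaks became 99 with the shorter lists, 117 with the strongest 50% of peaks, 86 within 20 kb, 290 within 100 kb and 121 with the nearest start required, where fewer or more peaks could count by construction. With 1 library alone there were 265 to 284. The median promoter rank of 82.3 became 70.2 with the shorter lists, whose ranks are set among fewer, stronger peaks, and was 81.1 to 84.2 with 1 library. The 16 distal peaks with an AP-1 motif became 8 within 20 kb and 23 to 24 with 1 library. The 0 accessible promoters with an AP-1 motif became 3 and 7 in the longer stretches of 500 and 1000 bp before the start. No paired analysis was possible because there is 1 group and no result comes from a test. Depth in reads is unknown, so the absence of a peak says only that none was called, and weak peaks below the threshold of either list were not seen.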
